A study of Bos taurus with 42 samples.

Results

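RRAGB, ATP6V1A and TFE3 are 3 genes of the lysosomal nutrient sensing pathway, taken from 22664 genes with read counts in bovine fetal tissues. They were chosen by results of the same study in the cerebrum: RRAGB and ATP6V1A were listed there among the genes whose correlations with other genes differed between maternal diets, and TFE3 among the transcription factors (TFs) whose connections differed. The values of the 3 genes in the diet comparison of the cerebrum are therefore a description, and calls counted there are the measure of the choice and support nothing. The files list the genes as ENSBTAG00000012980 (RRAGB), ENSBTAG00000002703 (ATP6V1A) and ENSBTAG00000008523 (TFE3), without positions. RNA-Seq libraries were made from the cerebrum, liver and muscle of 14 fetuses at day 50 of gestation, 1 library per fetus and tissue. The dams were Angus-cross heifers bred to a common sire. The dams of 7 fetuses were fed to their full requirement for growth (CON), and those of the other 7 received 60% of that intake (RES). CON held 1 female fetus and RES held 2, and the other 11 fetuses were male.

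RRAGB encodes a Rag GTPase. Rag GTPases sit on the lysosome as heterodimers and, when amino acids are plentiful, recruit the growth regulating kinase complex mTORC1 to its surface. ATP6V1A encodes the catalytic A subunit of the V-ATPase, the proton pump that acidifies the lysosome and takes part in amino acid sensing there. TFE3, a TF of the MiT/TFE family, is held in the cytoplasm when mTORC1 is active, and it drives lysosomal and autophagy genes from the nucleus when nutrients are short.

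The libraries held between 4145093 and 12741299 counts. In the cerebrum, counts ranged over the libraries from 241 to 625 for RRAGB, from 377 to 1389 for ATP6V1A and from 167 to 379 for TFE3. RRAGB was the least well covered in the liver, with 24 to 72 counts per library, where counting error is a larger part of the spread. Levels are given as log2 CPM, the count relative to the library total, with TMM factors over the 42 libraries and a prior count of 1. They are not scaled by gene length and are compared only within a gene.

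Marker genes followed the labels of the tissues. The 9 neuron markers with a symbol summed to a mean of 4731 CPM in the cerebrum, with STMN2 the most abundant, against 235.5 CPM in muscle and 15.3 CPM in the liver. The 5 hepatocyte markers summed to 158191 CPM in the liver, led by SERPINA1. The 7 skeletal muscle markers summed to 3209 CPM in muscle, led by the embryonic myosin MYH3, and 1 of them, MYOD1, had no count in any liver library. All other markers of the lists had counts in every tissue.

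Several libraries stood apart from their group. The cerebrum library of fetus 1 (RES) had the lowest summed neuron markers, at 2411 CPM against 3541 to 10323 CPM in the other cerebra. Except for the neural progenitor list, its marker lists of other cells were the highest of the 14 cerebra. The neural progenitor list, at 95.4 CPM, lay above only fetus 23 (76.9 CPM). The hepatocyte list summed to 5875 CPM against at most 1150 CPM, and TTR gave 5632 CPM of it. The 4 erythroid markers summed to 260 against at most 86.3 CPM. The 4 macrophage and leukocyte markers summed to 169 against at most 42.0 CPM, and CTSK gave 121 CPM of the 169. The skeletal muscle markers summed to 110 against at most 15.6 CPM. Named mitochondrial genes, 12 in all, took 14.7% of the counts of fetus 1 and at most 6.89% in the other cerebra. The cerebrum library of fetus 23 (CON) had the highest summed neuron markers. In muscle, the library of fetus 73 (CON) had 2140 CPM of neuron markers, that of fetus 1 had 488 CPM, and the others 33.7 to 98.6 CPM. In the liver, the mitochondrial genes took from 4.04% to 67.7% of the counts, and 4 libraries passed 20%: fetus 1 at 67.7%, fetus 2 (CON) at 44.9%, fetus 6 (RES) at 35.6% and fetus 33 (RES) at 30.5%.

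RRAGB was highest in the cerebrum and lowest in the liver. In the cerebrum, its level had a lowest value of 5.80, a median of 6.09 and a highest of 6.40 log2 CPM in CON, and 4.93, 6.10 and 6.34 in RES. Apart from fetus 1, the cerebra spanned less than 1 log2 unit, and the diets overlapped. In muscle the lowest, median and highest were 3.87, 4.04 and 4.57 in CON and 3.94, 4.20 and 4.58 in RES. In the liver they were 2.42, 3.25 and 3.64 in CON and 3.26, 3.36 and 3.65 in RES. The range of the cerebrum did not overlap with those of muscle and liver, nor did muscle overlap with liver. As CPM, RRAGB stood at 65.7 ± 13.1 in the cerebrum, 18.2 ± 3.17 in muscle and 9.81 ± 1.76 in the liver (SD, n = 14 each).

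Levels of RRAGB differed in each tissue pair. The log2 fold change was -2.74 (SE 0.12, adjusted p = 1.36e-23) for liver against cerebrum, -1.85 (SE 0.12, adjusted p = 1.41e-17) for muscle against cerebrum and -0.89 (SE 0.12, adjusted p = 6.85e-09) for liver against muscle, by edgeR's quasi-likelihood test over all genes. Calls were common between tissues. Of 15972 genes tested, 83.6% were called for liver against cerebrum (38.5% higher and 45.2% lower in the liver), 68.1% for muscle against cerebrum (32.2% higher and 35.9% lower in muscle) and 82% for liver against muscle (36.6% higher and 45.5% lower in the liver). In bulk tissue, fewer cells of a type and less RNA per cell cannot be told apart.

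ATP6V1A followed the same order of tissues, with a larger SD than RRAGB over the cerebra (0.55 against 0.35) and over the livers (0.82 against 0.30) and one of like size in muscle (0.23 against 0.24). In the cerebrum, its lowest, median and highest levels were 6.82, 7.15 and 8.08 log2 CPM in CON and 5.57, 7.06 and 7.55 in RES. The library of fetus 1 was lowest and that of fetus 23 highest. In muscle they were 5.70, 5.79 and 6.49 in CON and 5.44, 5.73 and 5.77 in RES, with fetus 73 highest. In the liver they were 4.24, 5.47 and 5.96 in CON and 3.45, 4.92 and 6.38 in RES. The liver values overlapped with those of muscle, and only fetus 1 placed a cerebrum value within the range of another tissue. As CPM, ATP6V1A stood at 143.7 ± 49.5 in the cerebrum, 56.2 ± 10.6 in muscle and 39.5 ± 20.6 in the liver (SD, n = 14 each).

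ATP6V1A was lower in the liver than in the cerebrum by a log2 fold change of -1.90 (SE 0.20, adjusted p = 1.59e-11) and lower in muscle than in the cerebrum by -1.36 (SE 0.20, adjusted p = 6.68e-08) in edgeR's test. Between liver and muscle the log2 fold change was -0.54 (SE 0.20, adjusted p = 0.0111). This last call was lost without the 4 livers with a mitochondrial share past 20%, an alternative added after seeing the data, where it was -0.23 (SE 0.17, adjusted p = 0.221 by edgeR).

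TFE3 varied little. Its lowest, median and highest levels were 4.88, 5.17 and 5.42 log2 CPM in the CON cerebra and 4.98, 5.26 and 5.58 in the RES cerebra. In the liver they were 5.27, 5.54 and 5.64 in CON and 5.26, 5.49 and 5.81 in RES, and in muscle 5.25, 5.37 and 5.47 in CON and 5.06, 5.41 and 5.59 in RES. The ranges of the 3 tissues overlapped. In the cerebrum, where its highest level was in fetus 1, 2.35% of genes had a smaller SD than TFE3, in the liver 3.33% and in muscle 9.84%.

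TFE3 was higher in the liver than in the cerebrum by 0.27 on the log2 scale (SE 0.08, adjusted p = 0.00138 by edgeR). Neighbours in the order did not differ past the threshold: muscle against cerebrum gave 0.13 (SE 0.08, adjusted p = 0.120) and liver against muscle 0.14 (SE 0.08, adjusted p = 0.0933), both by edgeR. Without fetus 1, both passed, at 0.19 (adjusted p = 0.0262) and 0.17 (adjusted p = 0.0412) in the same test. The direction depended on the scaling. With total counts in place of TMM factors, the median of all genes moved from -0.17 to -1.20 for liver against cerebrum, with 3171 genes higher and 10509 lower in place of 6147 and 7213, and TFE3 gave -0.78. Relative to the median of all genes, TFE3 stood 0.44 higher with TMM factors and 0.42 higher with total counts. For RRAGB this relative difference was -2.57 and -2.58, and for ATP6V1A -1.73 and -1.61.

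**Figure D1:**
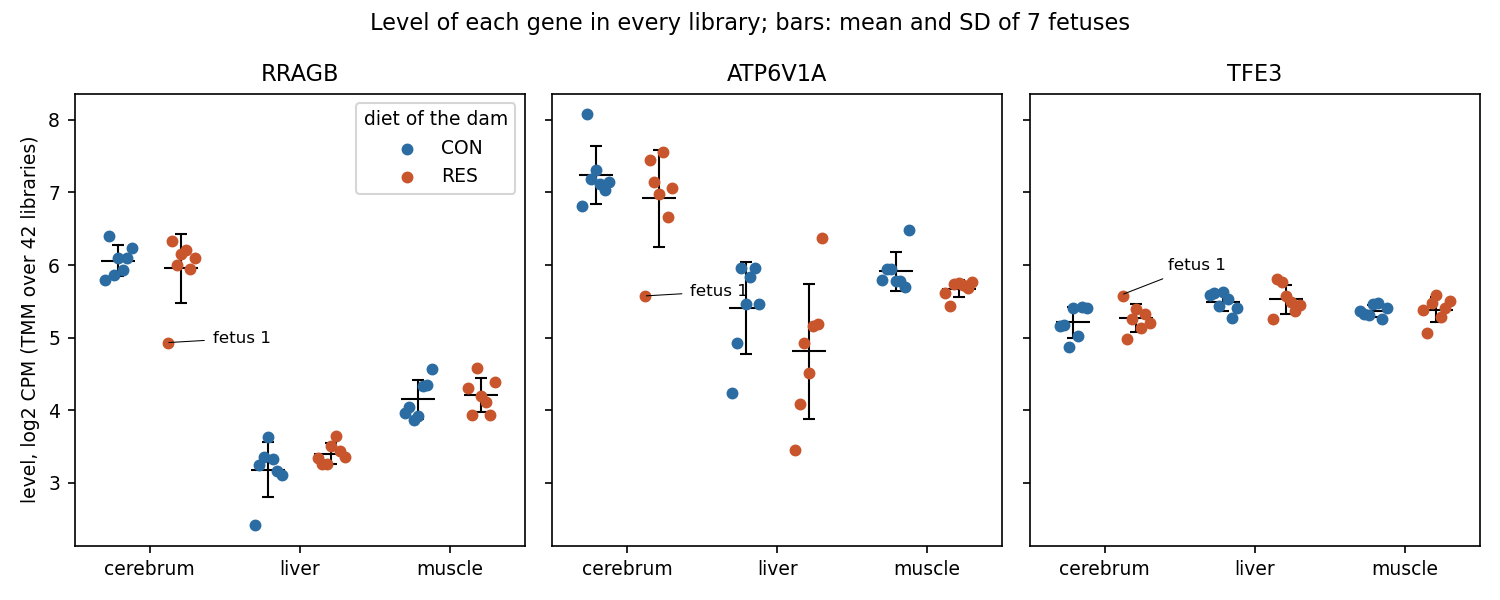
Level of RRAGB, ATP6V1A and TFE3 in log2 CPM (y axis) in each library by tissue (x axis), with CON in blue and RES in orange. Bars give the mean and SD of 7 fetuses, and the cerebrum library of fetus 1 lies at 4.93, 5.57 and 5.58 for the 3 genes, below all other cerebra for the first pair and above them for TFE3.

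Other genes of the pathway were taken from lists of known components. Only genes that the study named in its own result lists had a symbol, which left 2 of 9 Rag and Ragulator genes, 7 of 23 amino acid sensors and GATOR components, 3 of 9 mTORC1 and TSC genes, 9 of 25 V-ATPase genes, 1 of 4 MiT/TFE factors and 10 of 35 lysosome and autophagy genes. They are thus not a neutral sample of the pathway. Apart from RRAGB, ATP6V1A and TFE3 these were 29 genes, of which 11 were higher and 10 lower in liver than in cerebrum, 11 higher and 9 lower in muscle than in cerebrum, and 10 higher and 10 lower in liver than in muscle. These shares of 72.4%, 68.97% and 68.97% compare with 83.6%, 68.1% and 82% of all genes. All counts below refer to edgeR's test with an adjusted p under 0.05.

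RRAGD, which pairs with RagA or RagB in the Rag heterodimer, had a mean level of 5.60 log2 CPM in the cerebrum, 5.06 in muscle and 1.84 in the liver. The log2 fold change was -3.66 for liver against cerebrum, -3.16 for liver against muscle and -0.51 for muscle against cerebrum, all past the threshold. Both Rag genes were therefore lowest in the liver.

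Of 7 genes upstream of the Rag GTPases, 3 were higher and 3 lower in liver than in cerebrum, with a median log2 fold change of -0.26 beside -0.17 over all genes. CASTOR1, the arginine sensor, was higher by 2.64 and SESN2, a leucine sensor of the sestrin family, by 2.40. BMT2, which encodes the S-adenosylmethionine sensor SAMTOR, fell by 3.39 and SESN3 fell by 2.58. In muscle against cerebrum, 2 were higher and 2 lower, with CASTOR1 at 1.496, SEC13 of the GATOR2 complex at 1.44, BMT2 at -0.88 and FNIP2, a partner of folliculin, at -0.74. In liver against muscle, 3 were higher and 3 lower, the largest changes being SESN2 at 2.18, CASTOR1 at 1.15, SESN3 at -2.55 and BMT2 at -2.51. Of the TSC genes, which restrain mTORC1, TSC2 was lower in the liver (-0.58 against cerebrum and -0.94 against muscle) and higher in muscle (0.36 against cerebrum), while TBC1D7 was lower in muscle than in cerebrum (-0.76) and in liver (0.78 for liver against muscle). TSC1 did not pass in any pair, with 0.20 for liver against cerebrum, 0.02 for muscle against cerebrum and 0.18 for liver against muscle.

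Subunits of the V-ATPase did not share one order of tissues. In liver against cerebrum, 2 of 9 were higher and 5 lower, with a median of -0.55 beside -0.17 over all genes, and in muscle against cerebrum also 2 and 5. In the V1 sector, which holds ATP6V1A, ATP6V1B2 was lower in both (-0.55 and -0.96). The neuronal G subunit ATP6V1G2 had 148 to 595 counts per cerebrum library, 27 to 243 in muscle and 0 to 5 in the liver, where 8 libraries had none, so its log2 fold changes of -8.23 and -5.37 for the liver depend on the prior count. In muscle against cerebrum it was lower, at -2.86. ATP6V1E2 had at most 12 counts in any library. In the membrane sector, ATP6V0E1 rose against the cerebrum by 2.57 in the liver and 1.48 in muscle, ATP6V0A2 was lower in the liver (-1.28) and gave -0.02 in muscle, and ATP6V0D1 gave -0.25 in the liver and was lower in muscle (-0.49). Of the accessory subunits, ATP6AP1 was higher in the liver by 0.95 and gave 0.18 in muscle, and ATP6AP2 was lower in both (-1.51 and -1.11). In liver against muscle, 3 were higher (ATP6V0E1 by 1.09, ATP6AP1 by 0.77 and ATP6V1B2 by 0.41) and 5 lower, among them ATP6V0A2 at -1.26.

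Lysosome and autophagy genes, a class that includes known targets of the MiT/TFE factors, came to 10. In liver against cerebrum 6 of these were higher and 1 lower, with a median of 0.94 beside -0.17 over all genes, of which 38.5% were higher. In muscle against cerebrum 6 were higher and 1 lower, with a median of 0.57 beside -0.06 over all genes, of which 32.2% were higher. The 4 macrophage and leukocyte markers were also higher in both comparisons, with medians of 4.18 for the liver and 1.75 for muscle. Their part in the lysosome counts was not tested. WIPI1, which binds phosphoinositides on forming autophagosomes, was higher by 4.63 in the liver and 2.93 in muscle. The glycosidase GUSB was higher by 2.10 in the liver, the protease CTSB by 1.70 in muscle, and the membrane protein LAMP1 by 0.84 and 0.63. CLN3, a lysosomal membrane protein, was lower in muscle, at -0.48. In liver against muscle, 3 were higher, led by WIPI1 (1.71) and HEXA (1.43), and 1 was lower. With total counts, the lists shifted with the median of all genes: in liver against cerebrum the lysosome list gave 4 higher and 4 lower and the V-ATPase list 1 and 6, and in liver against muscle they gave 1 and 7, and 0 and 7. Of all 15972 genes, 3171 were then higher and 10509 lower in liver against cerebrum, and 2612 higher and 11033 lower in liver against muscle.

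**Figure D2:**
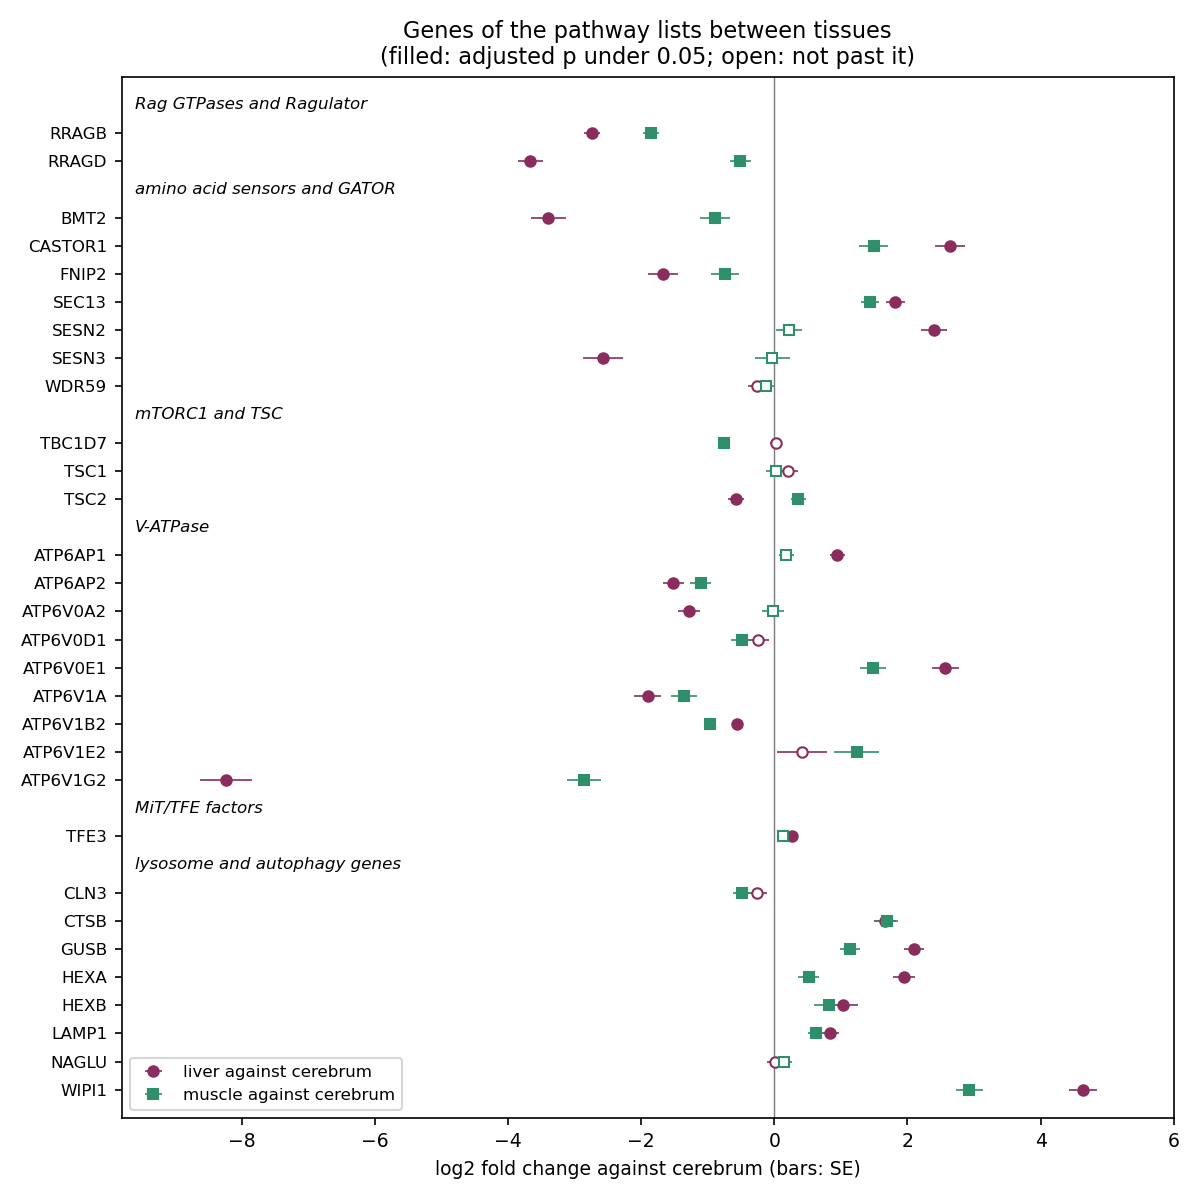
Log2 fold changes (x axis, with SE bars) of liver (circles) and muscle (squares) against cerebrum for pathway genes by list (y axis, with 8 of the 10 lysosome and autophagy genes drawn), filled where the adjusted p was under 0.05. RRAGB, RRAGD and ATP6V1A lie left of 0 in both comparisons, WIPI1 and ATP6V0E1 right of it, and TFE3 lies near it, at 0.27 for the liver with TMM factors and -0.78 with total counts, which are not drawn.

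Diet comparisons asked whether restriction of the dam changed the levels of the 3 genes in the fetus. In no tissue did any gene pass an adjusted p under 0.05 in edgeR's test, so that 0% of 13527 genes in the liver, 0% of 14947 in muscle and 0% of 15151 in the cerebrum were called. DESeq2's Wald test called 86 genes in the liver and 13 in muscle, none of them one of the 3 genes, although it gave RRAGB no adjusted p in muscle, and 0 genes in the cerebrum. At an unadjusted p under 0.05, edgeR counted 3260 genes in the liver (24.1%), 1481 in muscle (9.91%) and 386 in the cerebrum (2.55%).

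In the liver, ATP6V1A gave a log2 fold change of -0.72 for RES against CON (SE 0.34, adjusted p = 0.206 by edgeR), with overlapping groups and an unadjusted p under 0.05. Its level ran opposite to the share of the mitochondrial genes. The 3 highest ATP6V1A levels, 6.38, 5.96 and 5.96 log2 CPM, were in fetuses 70, 46 and 69, with shares of 4.34%, 4.04% and 4.14%, and the livers of fetuses 33, 6, 2 and 1, with the 4 highest shares, had 4.51, 4.09, 4.24 and 3.45. Over the 14 livers, Pearson's r between the level and the log2 share was -0.96 (permutation p = 1e-05, the smallest that the permutations can give, adjusted p = 6.0e-05 over 6 such relations in liver and muscle) and Spearman's rho -0.93 (permutation p = 3.0e-05, adjusted p = 0.000180). Without the 2 farthest libraries r was -0.94, and over the 10 livers under 20% it was -0.87. This relation was tested after it was seen in the data. Among all genes, 2.01% had an r at least as strong in the liver. RRAGB (r = -0.26, rho = -0.03, permutation p = 0.403 and 0.916, adjusted p = 0.483 and 0.916) and TFE3 (r = 0.27, rho = 0.31, permutation p = 0.346 and 0.279, adjusted p = 0.483 and 0.558) did not pass. Without the 2 farthest libraries these r were 0.23 and 0.70.

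Of the 4 livers past 20%, 3 were RES. With the log2 share as a covariate, the diet difference of ATP6V1A was -0.05 (SE 0.14, adjusted p = 0.972) in edgeR's test, and without these 4 libraries it was -0.36 (SE 0.30, adjusted p = 0.680). Both settings were added after seeing the data. In the fit with the share, ATP6V1A changed by -0.54 log2 units per doubling of the share (SE 0.06, adjusted p = 1.94e-06), where 53% of all genes were called. The count of genes with an unadjusted p under 0.05 for diet in the liver was 747 in that fit and 922 without the 4 libraries. Without fetal sex in the model the diet difference of ATP6V1A was -0.42 (adjusted p = 0.581 by edgeR). Marker lists of other cells also moved with ATP6V1A over the 14 livers. The summed skeletal muscle list (as log2 CPM) gave r = -0.91, the endothelium list, here TEK alone, 0.81 and the mesenchyme list 0.69, while the other 5 lists lay between -0.28 and 0.19. With the log2 mitochondrial share, the same lists gave 0.94, -0.77 and -0.76, and the other 5 lay between -0.16 and 0.25. Members of a list could differ in the sign of their r with ATP6V1A. Of the mesenchyme list, PDGFRB gave 0.76, but PTGDS gave -0.64 and SLC6A20 -0.63. Of the hepatocyte list, ALB gave 0.51 and AFP 0.43, but TTR gave -0.60, SERPINA1 -0.64 and FGA -0.26. Over the 10 livers under 20%, the skeletal muscle, endothelium and mesenchyme lists gave -0.87, 0.69 and 0.38. The erythroid list, at -0.14 over all livers, gave -0.85 there, and the hepatocyte list turned from -0.28 to 0.57. The remaining lists lay between -0.24 and 0.23. The skeletal muscle list summed to 10.5 to 58.2 CPM in the livers, most of it from TNNT3, with MYOD1 at 0 in all of them. For diet, TEK gave -0.66 and TNNT3 0.97 (both adjusted p = 0.184 by edgeR), each with an unadjusted p under 0.05. The part of these cells in the ATP6V1A difference, apart from that of the share, was not tested.

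**Figure D3:**
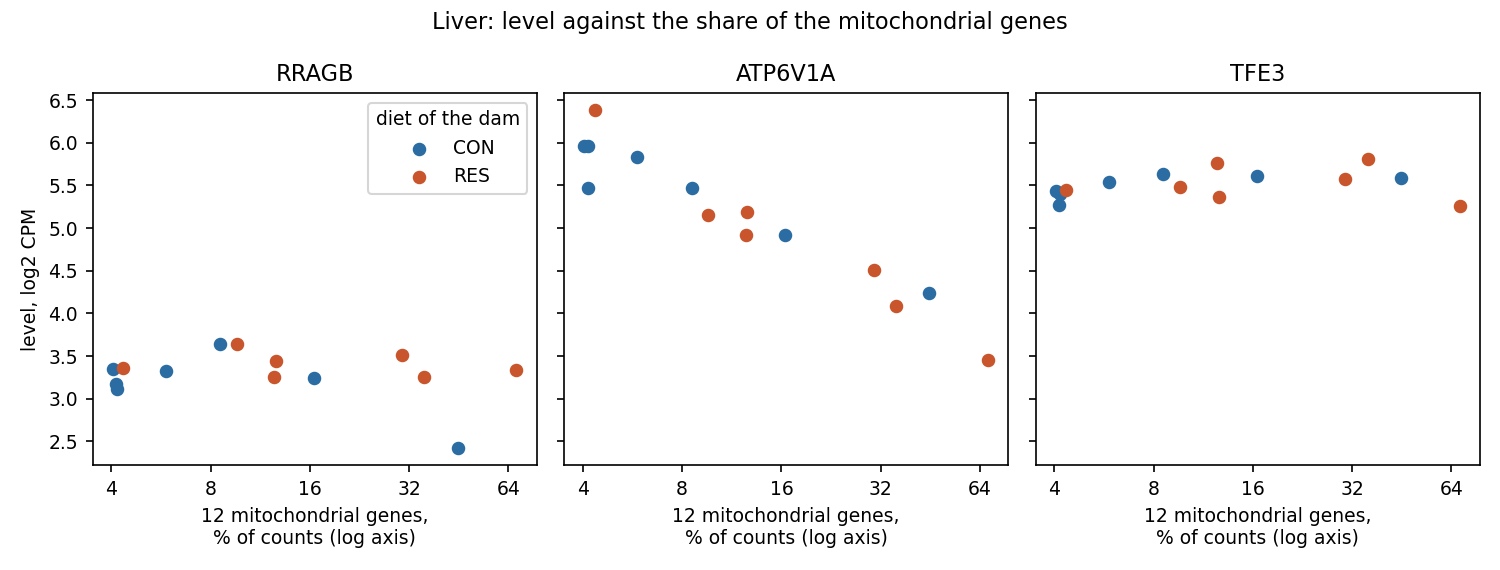
Liver level of each gene in log2 CPM (y axis) against the percentage of counts from 12 mitochondrial genes (x axis, log scale), 1 point per fetus, CON in blue and RES in orange. ATP6V1A falls along the axis from 6.38 to 3.45, and RRAGB and TFE3 show no such course over the 14 livers.

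RRAGB and TFE3 gave small diet differences in the liver, at 0.18 (SE 0.20, adjusted p = 0.547) and 0.04 (SE 0.12, adjusted p = 0.831) by edgeR. In muscle, RRAGB gave 0.04 (SE 0.14, adjusted p = 0.940), TFE3 gave -0.00 (SE 0.08, adjusted p = 0.988) and ATP6V1A -0.27 (SE 0.12, adjusted p = 0.502) in the same test by edgeR, the last with an unadjusted p under 0.05. For ATP6V1A in muscle, the library of fetus 73, highest in neuron markers, was also the highest in CON. Without it the difference was -0.15 (adjusted p = 0.519 by edgeR), and its unadjusted p was no longer under 0.05. The summed neuron markers (as log2 CPM) had r = 0.67 with ATP6V1A over all muscles and -0.09 without fetus 73. The neural progenitor list gave -0.74 and -0.73, and of its genes HES1 gave -0.83, HES5 0.57 and PAX6 0.54 over all muscles. The part of those markers in the result was not tested. The liver difference between diets was not shown to differ from that in muscle: the interaction was -0.20 for ATP6V1A (SE 0.40, adjusted p = 0.926), 0.14 for RRAGB (SE 0.24, adjusted p = 0.916) and 0.02 for TFE3 (SE 0.16, adjusted p = 1), with 0% of all genes called by edgeR. This interaction came from a joint fit over tissues, with 15972 genes tested, and need not equal the gap between the fits within each tissue. In the cerebrum, the fitted differences were -0.28 for ATP6V1A (SE 0.28), -0.09 for RRAGB (SE 0.20) and 0.05 for TFE3 (SE 0.16). Without fetus 1 they came to -0.11, 0.06 and -0.01, and without fetus 23 to -0.07, 0.0015 and 0.07. With any 1 fetus left out they ranged from -0.38 to -0.07 for ATP6V1A, from -0.16 to 0.06 for RRAGB and from -0.01 to 0.11 for TFE3.

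Of the other pathway genes, none passed an adjusted p under 0.05 for diet in any tissue by edgeR, and 1 of 28 (cerebrum, beside 2.55% of all genes), 3 of 27 (liver, where 24.1% of all genes did) and 3 of 29 (muscle, where 9.91% did) had an unadjusted p under 0.05. Their median log2 fold change was 0.07 (cerebrum), -0.02 (liver) and -0.01 (muscle), beside -0.03, -0.03 and -0.01 over all genes. Among these were WIPI1 at 1.08 in the cerebrum, WIPI1 at 0.44, HEXA at 0.51 and BMT2 at -1.15 in the liver, and FNIP2 at -0.40 and CLN3 at -0.19 in muscle, named after their values were seen. In the liver, WIPI1, HEXA and BMT2 had r = 0.80, 0.86 and -0.63 with the log2 mitochondrial share, and the part of that share in their differences was not tested. WIPI1 in the cerebrum gave 0.36 without fetus 1, where its unadjusted p was no longer under 0.05. The 10 lysosome and autophagy genes summed to 848 CPM in that library and to at most 473 CPM in the other cerebra. Between the sexes, with 3 females against 11 males, ATP6V1A in the liver was 1.07 higher in females (SE 0.38, adjusted p = 0.223 by edgeR). It was 0.38 higher with the mitochondrial share as a covariate (adjusted p = 0.822 by edgeR). Both had an unadjusted p under 0.05, as had 3010 and 777 of 13527 genes in these fits. The 4 livers past 20% were all male, and without them the difference was 0.58 (SE 0.31, adjusted p = 0.751 by edgeR), with an unadjusted p no longer under 0.05. No other sex difference of the 3 genes reached an unadjusted p under 0.05.

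Genes most like each of the 3 were found by Pearson's r over the 42 libraries among 5095 named genes, as a description. With tissue means taken out, the genes nearest to ATP6V1A were HSD17B12 (r = 0.94), PLEKHA1 (0.93) and SUCLA2 (0.93), the last encoding a subunit of the mitochondrial succinyl-CoA ligase. Within single tissues, HSD17B12 gave r = 0.95 (cerebrum), 0.97 (liver) and 0.25 (muscle). The 14 livers also differ in mitochondrial share, as described above. For TFE3 the nearest was SESN2 (r = 0.64), with 0.62, 0.59 and 0.86 for cerebrum, liver and muscle, followed by PIGZ (0.60) and PRAF2 (0.58). SESN2 encodes the leucine sensor named above. For RRAGB they were CMPK1 (0.63), KRT222 (0.61) and WDR72 (0.61). With tissue means kept, RRAGB was nearest to SS18L1, KIF21A and PAK5 (all r = 0.97), ATP6V1A to AZIN1, GSPT2 (both 0.96) and ZHX1 (0.95), and TFE3 to BFAR (0.71), SESN2 and CASTOR1 (both 0.70).

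In the cerebrum, RRAGB and ATP6V1A varied together. Over the 14 cerebra r was 0.91 and rho 0.68, with r = 0.79 in CON and 0.96 in RES. Without fetus 1, whose library was lowest for both, r was 0.74, and 0.80 in RES. RRAGB and TFE3 gave r = 0.51 in CON and -0.83 in RES, where it was -0.74 without fetus 1. ATP6V1A and TFE3 gave -0.03 in CON and -0.89 in RES, and -0.79 in RES without fetus 1. The diet groups thus differed in sign for RRAGB and TFE3, with 7 fetuses each. These values belong to the comparison by which the genes were chosen. The summed neuron markers (as log2 CPM) had r = 0.79 with RRAGB, 0.83 with ATP6V1A and -0.07 with TFE3 over the same libraries, and 0.76 (RRAGB), 0.76 (ATP6V1A) and 0.29 (TFE3) without fetus 1. STMN2 gave 2408 of the mean 4731 CPM of the neuron list. Without fetus 1, DCX and ELAVL3 gave -0.21 and -0.18 with RRAGB and -0.25 and -0.36 with ATP6V1A. The other neuron markers then gave 0.53 to 0.77 with RRAGB and 0.49 to 0.86 with ATP6V1A. Several lists of other cells gave negative values over the 14 cerebra. For RRAGB and ATP6V1A, r was -0.84 and -0.70 with the macrophage and leukocyte list, -0.82 and -0.75 with the mesenchyme list and -0.74 and -0.71 with the skeletal muscle list. Without fetus 1 these came to -0.22 and 0.095, to -0.62 and -0.46, and to -0.089 and -0.19. The neural progenitor list gave 0.047 and -0.079 (-0.51 and -0.57 without fetus 1), and the hepatocyte list -0.52 and -0.25 (-0.068 and 0.36 without it). TTR made up 687 of the mean 731 CPM of the hepatocyte list. Without fetus 1, TTR gave 0.47 with ATP6V1A, but ALB, AFP, SERPINA1 and FGA gave -0.12, -0.27, -0.31 and -0.50. Of the macrophage and leukocyte list, CTSK then gave -0.50 with ATP6V1A, but CSF1R, C1QA and C1QB gave 0.23, 0.38 and 0.78. The log2 mitochondrial share gave -0.84 (RRAGB) and -0.76 (ATP6V1A), and -0.18 and -0.17 without the 2 farthest libraries. The part of these in the correlations was not tested.

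**Figure D4:**
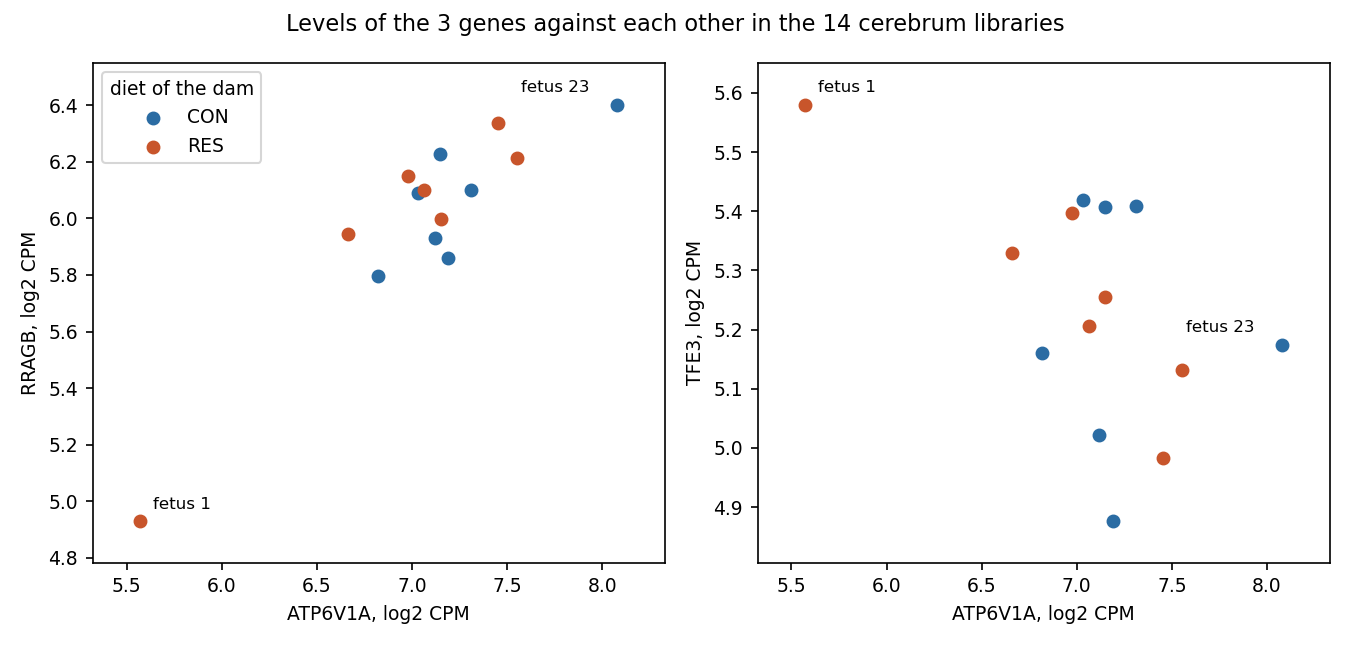
Levels in log2 CPM of RRAGB (left, y axis) and TFE3 (right, y axis) against ATP6V1A (x axes) in the 14 cerebra, CON in blue and RES in orange. Fetus 1 lies alone at an ATP6V1A level of 5.57, and the next value is 6.66.

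Differentially co-expressed (DC) pairs are pairs of genes whose correlation differs between CON and RES, by Fisher's z of Pearson's r with adjustment over all pairs of the tissue. They were counted on variance stabilized values after removal of the 20% of genes with the lowest dispersion. In the cerebrum, 0.435% of 73441140 pairs were called. RRAGB had 1154 DC partners, rank 3 of 12120 genes, and ATP6V1A had 1130, rank 5, where the median gene had 16. The genes were chosen by this measure on these libraries, so a high count and rank were fixed by the choice and are no finding. The correlation was higher in RES for 568 partners of RRAGB and lower for 586, and for ATP6V1A 517 and 613. This balance turned on log2 CPM values, with 770 higher and 482 lower for RRAGB and 735 and 506 for ATP6V1A. Of these partners, 702 were shared, which is 60.8% of those of RRAGB and 62.1% of those of ATP6V1A. TFE3 was removed by the dispersion filter in all 3 tissues. Without that filter it had 35 DC partners in the cerebrum, beside a mean of 39.9 and a median of 11 over 15151 genes, at rank 4201.

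Counts of DC partners rested on a few libraries. Without fetus 1, RRAGB had 1 DC partner and ATP6V1A had 2, and the pairs called in the whole tissue fell from 319378 to 5790. Without fetus 23, they had 303 and 34. With any other fetus left out, RRAGB had from 626 (without fetus 69) to 1216 (without fetus 55) and ATP6V1A from 618 to 1486 with the same fetuses left out. Changes of over 1.5 times among these also came without fetus 6 for both (714 and 683) and, for ATP6V1A, without fetuses 33 (626), 73 (702) and 68 (723). Among the named partners with the lowest p, shown as examples of such pairs, were DYNLRB1, a dynein light chain, and MPST for RRAGB. DYNLRB1 had r = 0.99 in CON and -0.94 in RES, and -0.33 in RES without fetus 1. MPST had 0.98 in CON and -0.96 in RES, and -0.61 in RES without fetus 1. For ATP6V1A they were P4HB, GADD45GIP1 and MRPL10, the latter pair known for roles in mitochondrial ribosomes. MRPL10 had r = 0.97 in CON and -0.96 in RES, and -0.86 in RES without fetus 1, while P4HB went from -0.90 to -0.17.

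**Figure D5:**
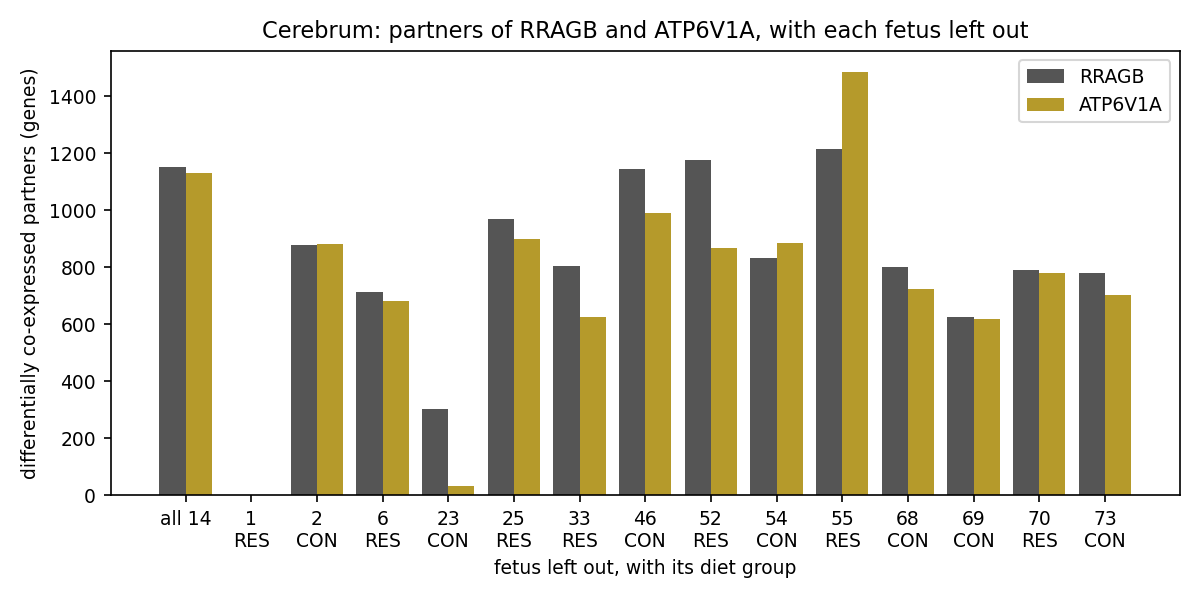
Number of DC partners (y axis) of RRAGB (grey) and ATP6V1A (ochre) in the cerebrum with all 14 fetuses and with each fetus left out (x axis, with its diet). The bars vanish without fetus 1, at 1 and 2 partners, and are low without fetus 23, at 303 and 34.

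The number of genes past |r| of 0.9 was also counted in each diet. It was counted only for RRAGB, ATP6V1A and TFE3. No value over all genes stands beside it, so whether such counts are usual for a gene in these libraries is not known. In the cerebrum, RRAGB had 954 such genes in CON and 2158 in RES, and 97 in RES without fetus 1. ATP6V1A had 986 and 2267, and 618 in RES without fetus 1. TFE3, without the dispersion filter, had 138 and 1230 (cerebrum), 114 and 22 (liver) and 73 and 225 (muscle), and no fetus was left out in that setting. In the liver, ATP6V1A had 3336 in CON and 2901 in RES. Its counts for muscle were 827 and 583. RRAGB had 119 and 91 in muscle and was removed by the dispersion filter in the liver, where it had 312 and 10 without that filter. Which diet had more was not stable. In the cerebrum it turned for both genes without fetus 1, and in the liver for ATP6V1A without any of 5 fetuses. In muscle it turned for ATP6V1A without any of 5 fetuses (216 and 583 without fetus 73) and for RRAGB without any of 6 (119 and 510 without fetus 1).

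Outside the cerebrum, the 3 genes were not shown to vary together. Of 6 pairs in the liver and muscle, none passed. The lowest p was that of RRAGB and TFE3 in muscle with r = 0.38 (permutation p = 0.178, adjusted p = 0.514) and rho = 0.40 (permutation p = 0.156, adjusted p = 0.820), and r = 0.34 without the 2 farthest libraries. RRAGB and ATP6V1A, which went together in the cerebrum, gave r = 0.24 in the liver and 0.35 in muscle (permutation p = 0.415 and 0.237, both adjusted p = 0.514), with rho of 0.16 and 0.02 (permutation p = 0.583 and 0.940, adjusted p = 0.874 and 0.940). Without the 2 farthest libraries these r were -0.04 and -0.11. ATP6V1A and TFE3 in the liver gave r = -0.23 (permutation p = 0.429, adjusted p = 0.514) and rho = -0.31 (permutation p = 0.273, adjusted p = 0.820), but r = -0.67 without fetus 1 and -0.68 without the 2 farthest libraries. ATP6V1A and TFE3 in muscle gave r = 0.12 in CON and 0.88 in RES. The exact permutation p of that difference was 0.0460, and 0.276 adjusted over 6 pairs. In RES this sign is opposite to that in the cerebrum, a contrast that was not tested. Of 9 correlations of a gene between tissues of the same fetus, none passed, the strongest being TFE3 between cerebrum and liver with r = -0.44 (permutation p = 0.118, adjusted p = 0.492) and rho = -0.42 (permutation p = 0.136, adjusted p = 0.600), and r = -0.49 without the 2 farthest fetuses.

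DC pairs came to 0.0064% of 58541610 pairs in the liver and 0.0314% of 71478946 in muscle. The order of the tissues was not stable: without fetus 1 the share was 0.0079% in the cerebrum and 0.0409% in muscle. ATP6V1A had 0 DC partners in the liver and 61 without fetus 70, whose liver had the highest ATP6V1A. Without that fetus, the pairs called in the whole liver rose from 3746 to 123441, or 22.8 per gene on average, and ATP6V1A stood at rank 567 of 10821 genes. In muscle it had 33, of which 8 were higher and 25 lower in RES, at rank 132 of 11957 genes, and this count moved by over 1.5 times without any of 7 of the 14 fetuses: 0 without fetus 73, 5 without 70, 6 without 33, 16 without 46, 19 without 68, 63 without 6 and 84 without 2. With sex differences removed it was 1, and the pairs called in the whole tissue fell from 22412 to 4174. RRAGB had 0 in muscle. The named partners of ATP6V1A with the lowest p in muscle were TRANK1 (r = -0.97 in CON and 0.89 in RES), RTN2 (0.97 and -0.84) and EVI5L (0.94 and -0.92). In the liver, TRIB3, NACC1 and PLAT had the lowest p with ATP6V1A, and in muscle PFKP, ZNF580 and SLC39A3 with RRAGB, none of them called.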

How the data were processed

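Per the submitters' processing notes, reads were checked with FastQC (0.11.8) and aligned with STAR (2.7.3a). The deposited values are raw read counts per Ensembl gene, 1 column per library. The study's methods give strand-specific libraries, and the strand setting of the counting is not given in the sources used here. Symbols, for 5122 of 22664 genes, came from gene lists of the study.

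Genes under 1 CPM in at least 80% of libraries were left out. Diet was fitted within each tissue with fetal sex, and tissues over 42 libraries with diet and sex, by edgeR (4.0.16, R 4.3.3, TMM factors, quasi-likelihood test) with Benjamini-Hochberg adjustment over all genes. Correlations were computed with numpy (2.4.6), with ranks from scipy (1.17.1). Their p came from 100000 permutations over 14 fetuses and all 5040 pairings over 7. The difference of a correlation between diets was tested over 3432 splits of the 14 fetuses into groups of 7. DC pairs used variance stabilized values of DESeq2 (1.42.0), which also gave alternative size factors and the Wald test. Fits and the scan of pairs were tested on simulated data. Tissues of a fetus are paired by the labels. The median correlation of their deviations from group means was 0.031 for cerebrum and liver, 0.058 for cerebrum and muscle and 0.120 for liver and muscle, and single fetuses ranged from -0.228 to 0.335. Each library came from a separate fetus within its group.

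The genes and lists were chosen with earlier results of these data known. Named were the 3 genes, genes of the lists by largest change in each direction, the most alike genes, the DC partners with the lowest p, and the most abundant gene of marker lists. Settings added after seeing the data concern the 4 livers of high mitochondrial share. Sequences and positions were not analysed here. Results of some genes that the rule would name are not reported here.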

Additional observations from a re-analysis of the deposited data

Results flagged for a closer look

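Of 18 groups of 7 libraries (3 genes, 3 tissues, 2 diets), 4 held a library that lay far from the others. The rule flags about 1 group in 20 by chance. The count is not a test against that rate. RRAGB and ATP6V1A were chosen on the cerebrum libraries, and the 3 genes share their libraries. RRAGB in the RES cerebra was 4.93 log2 CPM in fetus 1, with the nearest at 5.94. ATP6V1A in the CON cerebra was 8.08 in fetus 23, with the nearest at 7.31. ATP6V1A in the CON muscles was 6.49 in fetus 73, with the nearest at 5.95. RRAGB in the CON livers was 2.42 in fetus 2, with the nearest at 3.11, from 25 counts, and only just met the rule. The first library also had the lowest summed neuron markers of the cerebra, the second the highest, and the third the highest of the muscles, while the fourth was 1 of the 4 livers of high mitochondrial share. The part of these in the values was not tested.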

How the results depend on the processing

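Apart from leaving out a fetus, 234 values were computed under other settings, of which 205 kept their direction and side of the threshold, or their size. DESeq2's Wald test called 86 genes for diet in the liver, 13 for diet in muscle and, for sex, 6 (cerebrum), 3 (liver) and 10 (muscle). TFE3 gave -0.78 for liver against cerebrum and -0.91 for liver against muscle with total counts, and passed for liver against muscle at 0.16 with size factors and at 0.16 in the Wald test. Without sex as a covariate TFE3 gave 0.010 for diet in muscle. Without the 4 livers of high mitochondrial share, ATP6V1A gave -0.23 for liver against muscle, RRAGB gave -0.028 for sex in the liver, and the liver correlations were -0.12 (RRAGB and ATP6V1A) and 0.21 (RRAGB and TFE3). With the share as a covariate RRAGB gave -0.068 for sex. On variance stabilized values, the correlation of RRAGB between cerebrum and liver was -0.011. With sex differences removed, ATP6V1A had 1792 DC partners (cerebrum), 1 (liver) and 1 (muscle). Past |r| of 0.95 in CON and RES, RRAGB had 273 and 713 genes (cerebrum) and 21 and 17 (muscle), and ATP6V1A had 264 and 799 (cerebrum), 1525 and 1197 (liver) and 317 and 127 (muscle). The cause of these changes was not tested. With the fetus as a replicate block, no call of the 3 genes changed, and ATP6V1A gave -0.63 for liver against muscle. Of 756 values with 1 fetus left out, 675 were the same by that measure. Diet differences ranged from -0.048 to 0.13 for RRAGB in muscle. For TFE3 they ranged in muscle from -0.055 to 0.049, and in the liver between -0.012 and 0.085. TFE3 ranged from 0.091 to 0.17 for liver against muscle and from 0.11 to 0.19 for muscle against cerebrum. Correlations ranged from -0.67 to -0.057 (ATP6V1A and TFE3, liver), -0.056 to 0.42 (the same, muscle), -0.037 to 0.33 (RRAGB and ATP6V1A, liver), -0.10 to 0.45 (the same, muscle) and -0.14 to 0.10 (RRAGB and TFE3, liver). Between tissues they ranged from -0.11 to 0.51 (ATP6V1A, cerebrum and liver), -0.026 to 0.35, -0.19 to 0.10 and -0.50 to 0.068 (RRAGB, cerebrum and liver, cerebrum and muscle, liver and muscle), and -0.61 to -0.28 and -0.25 to 0.44 (TFE3, cerebrum and liver, liver and muscle). DC partners ranged from 2 to 1486 (ATP6V1A, cerebrum), 0 to 61 (liver), 0 to 84 (muscle), 1 to 1216 (RRAGB, cerebrum) and 0 to 2 (muscle). Genes past |r| of 0.9 ranged in CON and RES from 565 to 1443 and 97 to 3130 (RRAGB, cerebrum), 119 to 469 and 84 to 510 (muscle), 147 to 1860 and 618 to 3712 (ATP6V1A, cerebrum), and 216 to 1240 and 583 to 1198 (muscle). Depth limited RRAGB most, with 24 to 72 counts per liver.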

Other observations

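Within the liver, several pathway genes varied with ATP6V1A over the 14 fetuses, as a description: ATP6V0A2 with r = 0.90 and FNIP2 with 0.86, and in the opposite direction TBC1D7 with -0.91, CLN3 with -0.90, CASTOR1 and HEXA with -0.87 each and WIPI1 with -0.83. These livers share the gradient of the mitochondrial genes. In muscle, FNIP2 gave r = 0.78 with ATP6V1A and SESN2 gave 0.86 with TFE3, and these were 0.75 and 0.86 without fetus 73. ATP6V1B2 gave r = 0.76 with ATP6V1A over the 14 muscles and -0.02 without fetus 73, whose library was highest in ATP6V1A, in neuron markers and in the summed V-ATPase genes, at 546 CPM against at most 434 CPM in the others.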
